A study of Rattus norvegicus with 9 samples.

Results

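The 9 genes that encode the subunits of AMPA and kainate receptors were taken by their symbols from 37209 genes counted in the rat PFC, which the labels call frontal cortex. They are the 4 AMPA subunit genes Gria1, Gria2, Gria3 and Gria4 and the 5 kainate subunit genes Grik1, Grik2, Grik3, Grik4 and Grik5. All 9 were among the 16837 genes that had enough counts to be tested. RNA depleted of rRNA was sequenced from 9 male Wistar rats of 14 weeks, with 3 rats in each of 3 groups. Control rats (A1, A2 and A6) stayed with their mothers until weaning. MS rats (B3, B4 and B6) went through neonatal maternal separation, with the mothers removed daily for 4 h between PND 1 and PND 21. MS+EA rats (C3, C10 and C16) had the same separation, and electroacupuncture at GV20 and GV29 every other day from PND 61 to PND 81. The study's methods state that the Control and MS rats received anesthesia alone, and the rats of all groups were anesthetized with isoflurane again for tissue removal. No sham EA rats were sequenced, so the needles and the current cannot be told apart, and no unseparated rats received EA. The labels do not give the litters of the rats, so p-values measure the spread between these rats.

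AMPA receptors are tetramers that carry most of the fast excitatory current at synapses of the cortex, and each is assembled from the subunits GluA1 to GluA4. The GluA2 subunit, encoded by Gria2, keeps calcium from passing through the channel after its transcript has been edited, so the share of GluA2 among the subunits helps to set how much calcium the receptors let through. Kainate receptors act before and after the synapse and modulate release and excitability. GluK1, GluK2 and GluK3 can form channels by themselves, while GluK4 and GluK5, the high-affinity subunits, need a partner from that first set.

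Upstream sequences are shown for the AMPA gene Gria4 and the kainate gene Grik3, because Gria4 had higher values in both separated groups and Grik3 had the largest negative difference among the subunits. Of the 9 genes, 6 were found in the RefSeq promoter table of assembly GRCr8, and Gria1, Gria2 and Gria3 were not. Each sequence holds the 250 bases before the start of the gene, 5′ to 3′ on the strand of the gene, with matches to GGGCGG on either strand in capitals. The Gria4 window is chr8:10319882-10320131 on the minus strand, and the Grik3 window is chr5:143052192-143052441 on the plus strand.
Gria4: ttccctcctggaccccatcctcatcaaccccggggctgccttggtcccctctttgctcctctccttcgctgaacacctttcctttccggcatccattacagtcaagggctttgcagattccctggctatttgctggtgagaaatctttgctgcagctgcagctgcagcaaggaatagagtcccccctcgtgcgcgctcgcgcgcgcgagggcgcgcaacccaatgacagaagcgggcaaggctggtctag
Grik3: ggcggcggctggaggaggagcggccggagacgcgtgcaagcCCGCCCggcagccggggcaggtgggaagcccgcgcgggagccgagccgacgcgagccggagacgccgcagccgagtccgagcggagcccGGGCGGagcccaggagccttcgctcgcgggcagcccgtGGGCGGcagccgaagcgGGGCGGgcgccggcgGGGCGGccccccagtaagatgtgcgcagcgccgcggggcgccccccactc
The Grik3 window had 5 matches to the GC box GGGCGG and a GC content of 81.6%, higher than in 99.3% of the 33469 promoters of the table. The Gria4 window had 0 matches and a GC content of 59.6%. A GC box stood in 30.5% of all promoters of this length, the E-box CACGTG in 5.59% and the cAMP response element TGACGTCA in 1.59%. Neither window held either of the latter motifs, and these matches describe the letters of the windows alone.

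The total per rat was 16153292 to 19007907 counts in Control, 16106381 to 17243320 in MS and 12479905 to 14913736 in MS+EA, so the MS+EA libraries were the shallowest. They also had the highest share of lncRNA counts, 0.976 to 1.13%, against 0.798 to 0.908% in Control and 0.852 to 0.964% in MS. The MS library B4 stood apart in RNA of hypothalamic peptides: the 4 hypothalamic markers summed to 47.8 CPM there, and to at most 5.78 CPM in every Control rat and 1.47 CPM in every MS+EA rat. The MS+EA library C10 was the highest of the 9 in Gria2, Gria3 and Gria4, and results that rest on B4 or C10 are also given without them. The expression of a gene is given as CPM, the counts scaled to a common library total with TMM factors. A CPM also depends on the length of a transcript, so levels are compared between rats for the same gene and not between genes. A gene was called where its adjusted p was under 0.05 and it differed by over 1.5-fold in either direction. All adjusted p-values below, unless another tool is named, are from the quasi-likelihood test of edgeR with Benjamini-Hochberg adjustment over all 16837 genes. Markers of excitatory neurons, which hold much of the AMPA receptor RNA of the cortex, differed between the groups: the summed CPM of the 5 markers was 3882 to 4513 in Control, 3954 to 4008 in MS and 3373 to 3508 in MS+EA. Of the 55 cell type and region markers tested, 0 were called by edgeR in any comparison. Those with an unadjusted p under 0.05 were 5 in MS against Control, 11 in MS+EA against MS and 7 in MS+EA against Control. Of all genes, 10.6%, 12.4% and 22.5% had such a p. At an adjusted p under 0.05 without the fold criterion 3 markers passed, all in MS+EA against Control (all genes, 5.40%). They were Slc17a7, Camk2a and the layer 5 marker Fezf2 (log2 fold change -0.52, adjusted p = 0.0363, edgeR). The other layer 5 marker, Bcl11b, had 0.13. In whole tissue, fewer cells of a type and less RNA per cell cannot be told apart.

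**Figure D1:**
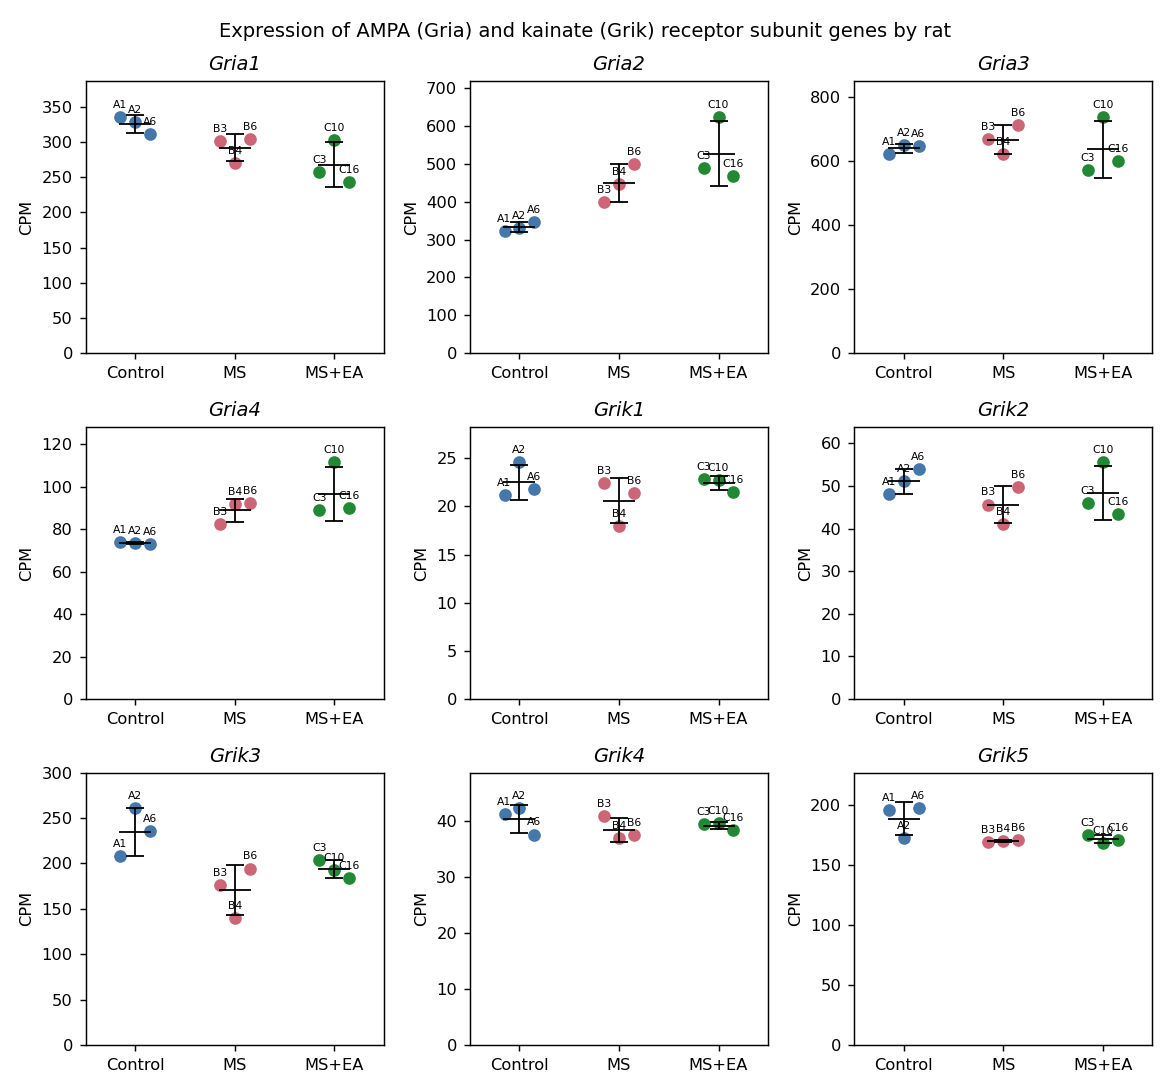
CPM of each subunit gene (y axis, from 0) in the 3 groups (x axis), where points are rats and the lines give the mean ± SD (n = 3). For Gria2, the Control rats lie between 323 and 347 CPM, below all MS rats (400.3 to 499) and all MS+EA rats (468 to 624).

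The first question was which subunit genes differed between MS and Control rats, the groups with and without neonatal separation. The study assigned dams to separation or control, so these groups came from different litters. Litter and separation cannot be told apart here. By edgeR, 0 of the 9 genes were called, against 4 of all genes tested (0.0238%), and DESeq2 and limma also called 0 of the 9. At an unadjusted p under 0.05 there were 4 of the 9 (all genes, 10.6%): Gria2 and Gria4 with higher values in MS, and Grik3 and Grik5 with lower values. The 3 MS rats did not overlap the 3 Control rats for 5 genes (all genes, 17.6%), these 4 and Gria1.

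The second question was what EA was followed by in separated rats. Between MS+EA and MS, 0 of the 9 genes were called by edgeR, DESeq2 or limma, against 3 of all genes by edgeR (0.0178%). With edgeR, 0 of the 9 had an unadjusted p under 0.05, where 12.4% of all genes did. DESeq2 gave 1 such gene and limma 0. The groups overlapped for each of the 9, where 17.9% of all genes did not overlap. The intervals of the 9 log2 fold changes reached from -0.31 to 0.46 and so held no change of 1.5-fold (0.58 on the log2 scale) in either direction.

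The widest separation was between MS+EA and Control, 2 groups that differ in both separation and EA. Here 1 of the 9 genes, Gria2, was called (all genes, 230 or 1.37%), and it was higher in MS+EA. At an adjusted p under 0.05 without the fold criterion there were 2, Gria2 and Gria4, where all genes gave 5.40%. At an unadjusted p under 0.05 there were 4 (all genes, 22.5%), with Gria1 and Grik3 lower. The groups did not overlap for these same 4 (all genes, 25.9%). Of the 5 kainate genes, 0 were called by edgeR, DESeq2 or limma in any of the 3 comparisons, and 2, 0 and 1 had an unadjusted p under 0.05 by edgeR in MS against Control, MS+EA against MS and MS+EA against Control.

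**Figure D2:**
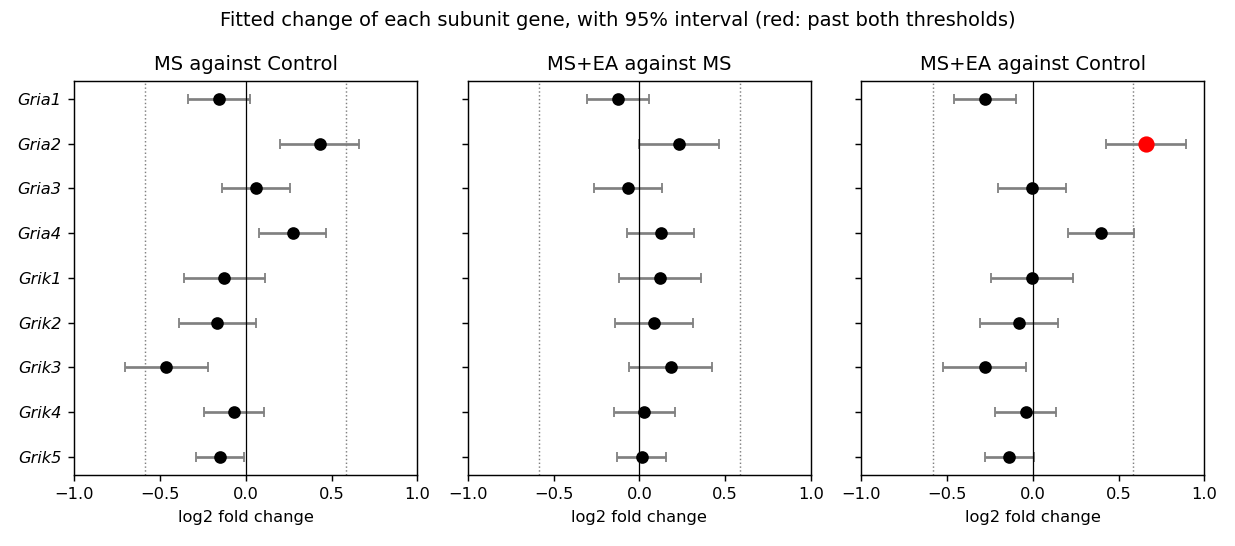
Log2 fold change of each subunit gene (x axis) in the 3 comparisons, with points for the fitted value and bars for its 95% interval. The dotted lines mark a fold change of 1.5, and the 1 red point, Gria2 in MS+EA against Control at 0.66, is past both criteria.

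Gria2, which encodes the calcium-limiting GluA2 subunit, had lower values in every Control rat than in any separated rat. Its CPM was 323, 330 and 347 in Control rats A1, A2 and A6. In MS rats B3, B4 and B6 it was 400.3, 447 and 499. In MS+EA rats C3, C10 and C16 it was 489, 624 and 468. All 6 separated rats lay above the 3 Control rats, and the MS and MS+EA rats overlapped, with C10 alone above all MS rats. The means were 333 ± 12.3 (SD, n = 3), 449 ± 49.6 and 527 ± 85.1 CPM, so the spread between rats was wider in the separated groups. Gria2 rose in MS+EA against Control by a log2 fold change of 0.66 ± 0.11 (SE, 95% interval 0.43 to 0.89), or 1.58-fold, with an adjusted p of 0.00856 from edgeR. This was rank 76 by p among all genes tested. Against Control, the difference in MS was 0.43 ± 0.11 (adjusted p = 0.164 by edgeR, 0.0150 by DESeq2), a fold of 1.35 that is below the criterion for a call. From MS to MS+EA it was 0.23 ± 0.11 (adjusted p = 0.403 by edgeR). The call in MS+EA against Control rests on a fold close to the criterion: without C10 the log2 fold change was 0.52, under a fold of 1.5, with an adjusted p of 0.0211. Without Control rat A1 it was 0.64 with an adjusted p of 0.0506.

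Gria4, the gene of GluA4, a subunit with fast kinetics that is abundant in parvalbumin interneurons, followed the same order of groups as Gria2. Its CPM was 74.1, 73.5 and 72.9 in Control, 82.5, 91.8 and 92.2 in MS, and 88.9, 111.5 and 89.8 in MS+EA. The Control rats lay close together (SD 0.629 CPM, n = 3) and below all separated rats, and C10 was again the highest. The log2 fold change in MS+EA against Control was 0.40 ± 0.09 with an adjusted p of 0.0283 from edgeR, so Gria4 rose, by a fold of 1.32 that is below the criterion for a call. The differences in MS against Control (0.27 ± 0.09, adjusted p = 0.280) and in MS+EA against MS (0.12 ± 0.09, adjusted p = 0.596) did not pass. The adjusted p of MS+EA against Control was above 0.05 without any 1 of the Control rats (0.0601 to 0.104) and without C10 (0.0704). The summed CPM of the interneuron markers overlapped between the groups, at 544 to 585 in Control, 536 to 685 in MS and 543 to 698 in MS+EA. Pvalb itself, the marker of parvalbumin interneurons, was 37.7 CPM on average in Control, 39.8 in MS and 33.5 in MS+EA, with MS+EA below MS without overlap (log2 fold change -0.25, adjusted p = 0.322 by edgeR). Slc32a1, the vesicular GABA transporter, was lower in all MS+EA rats than in all others (-0.18 against MS and -0.22 against Control, adjusted p = 0.394 and 0.144, edgeR). Gria4 had the opposite sign to Pvalb and Slc32a1 in MS+EA against MS and against Control. The other interneuron markers went both ways in MS+EA against Control. Log2 fold changes were positive for Gad1 (0.12), Gad2 (0.26), Sst (0.27), Adarb2 (0.20) and Prox1 (0.0043), and negative for Vip (-0.08) and Lhx6 (-0.33). Adarb2 was higher in all MS+EA rats than in all others. Pvalb and Slc32a1 were singled out after their values were seen, and the part of the interneuron markers in the Gria4 values was not tested.

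Gria1, the gene of GluA1, which is inserted at synapses during long-term potentiation, had the opposite order. Its CPM was 336, 328 and 312 in Control, 301.3, 271 and 305 in MS, and 258, 303 and 243 in MS+EA. Both separated groups lay below all Control rats, and they overlapped each other because C10 was as high as the MS rats. The log2 fold change was -0.15 ± 0.08 in MS against Control (adjusted p = 0.532), -0.12 ± 0.08 in MS+EA against MS (adjusted p = 0.570) and -0.28 ± 0.08 in MS+EA against Control (adjusted p = 0.0712), all from edgeR. DESeq2 gave the last difference an adjusted p of 0.0243, and edgeR without C10 gave -0.38 with an adjusted p of 0.0317. In the same comparison, the excitatory neuron markers Slc17a7, a vesicular glutamate transporter, and Camk2a, a kinase of the synapse, fell by 0.30 and 0.36 on the log2 scale (adjusted p = 0.0207 and 0.0387, edgeR), without reaching a fold of 1.5. Gria2 and Gria4 had the opposite sign to these markers. The part of this difference in markers in the values of Gria1 was not tested.

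Gria3, the gene of GluA3, had the smallest differences among the AMPA genes. Its CPM was 621, 649 and 645 in Control, 667, 619.8 and 710.0 in MS, and 571, 738 and 600.5 in MS+EA. All groups overlapped, and the highest and the lowest of the 9 rats were both MS+EA rats. The log2 fold change in MS+EA against Control was -0.0040, with an interval of -0.20 to 0.19 that held no change of 1.5-fold. It was 0.06 ± 0.09 in MS against Control and -0.06 ± 0.09 in MS+EA against MS (adjusted p = 0.859 and 0.808, edgeR).

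Among the kainate genes, Grik3, the gene of GluK3, a channel-forming subunit of low glutamate affinity, differed most. Its CPM was 208, 261 and 236 in Control, 177, 140.1 and 194 in MS, and 204, 192 and 184 in MS+EA. Both separated groups lay below all Control rats, and the lowest rat was B4. The log2 fold change was -0.46 ± 0.11 in MS against Control (adjusted p = 0.152 by edgeR, 0.00957 by DESeq2), a fold of 0.726 that did not reach the criterion. It was 0.18 ± 0.11 in MS+EA against MS (adjusted p = 0.530) and in MS+EA against Control -0.28 ± 0.11 (adjusted p = 0.159, edgeR). Without B4, the library with most hypothalamic peptide RNA, the difference in MS against Control was -0.34 (adjusted p = 0.411, edgeR). The part of this RNA in the Grik3 value was not tested.

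Grik5, the gene of the high-affinity subunit GluK5, was close to constant in the separated rats. Its CPM was 196, 172 and 197 in Control, 169.4, 169.7 and 170.6 in MS, and 175, 168 and 171 in MS+EA. The MS rats had an SD of 0.647 CPM (n = 3) and all lay below the Control rats, with A2 only just above them. The log2 fold change was -0.15 ± 0.07 in MS against Control, 0.01 ± 0.07 in MS+EA against MS and -0.14 ± 0.07 in MS+EA against Control (adjusted p = 0.451, 0.956 and 0.239, edgeR).

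The other kainate genes overlapped between all groups. Grik1, the gene of the channel-forming GluK1, ranged from 21.1 to 24.6 CPM in Control, 18.01 to 22.5 in MS and 21.5 to 22.9 in MS+EA. Grik2, the gene of GluK2, ranged from 48.1 to 53.9 CPM in Control, 41.2 to 49.8 in MS and 43.4 to 55.6 in MS+EA. Grik4, the gene of the high-affinity subunit GluK4, ranged from 37.6 to 42.3 CPM in Control, 36.9 to 40.9 in MS and 38.4 to 39.6 in MS+EA. No adjusted p of these 3 genes from edgeR was below 0.601, and their log2 fold changes lay between -0.17 and 0.12.

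The makeup of each family was compared as the share of a subunit in the counts of its family in each rat, a value that does not depend on the scaling of the library. A share depends on transcript length, so changes of a share between rats are described and not the order of the subunits. Gria2 made up 23.9%, 23.9% and 25.2% of the AMPA counts in Control, 27.6%, 31.3% and 31.1% in MS, and 34.8%, 35.1% and 33.4% in MS+EA. The 3 groups did not overlap, with Control lowest and MS+EA highest. The mean share went from 24.3% ± 0.763 (SD, n = 3) through 30.0% ± 2.08 to 34.4% ± 0.927. The difference was 5.67 percentage points in MS against Control, 4.43 in MS+EA against MS and 10.1 in MS+EA against Control, each with an exact two-sided permutation p of 0.1, the smallest that 3 rats against 3 allow. Over the 33 shares and comparisons tested the adjusted p was 0.22 for 15 of them, so none could pass 0.05 in this design. C10, the highest rat in Gria2 CPM, was also the highest in the Gria2 share, next to C3, and without it the difference of MS+EA from MS was 4.07 points.

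**Figure D3:**
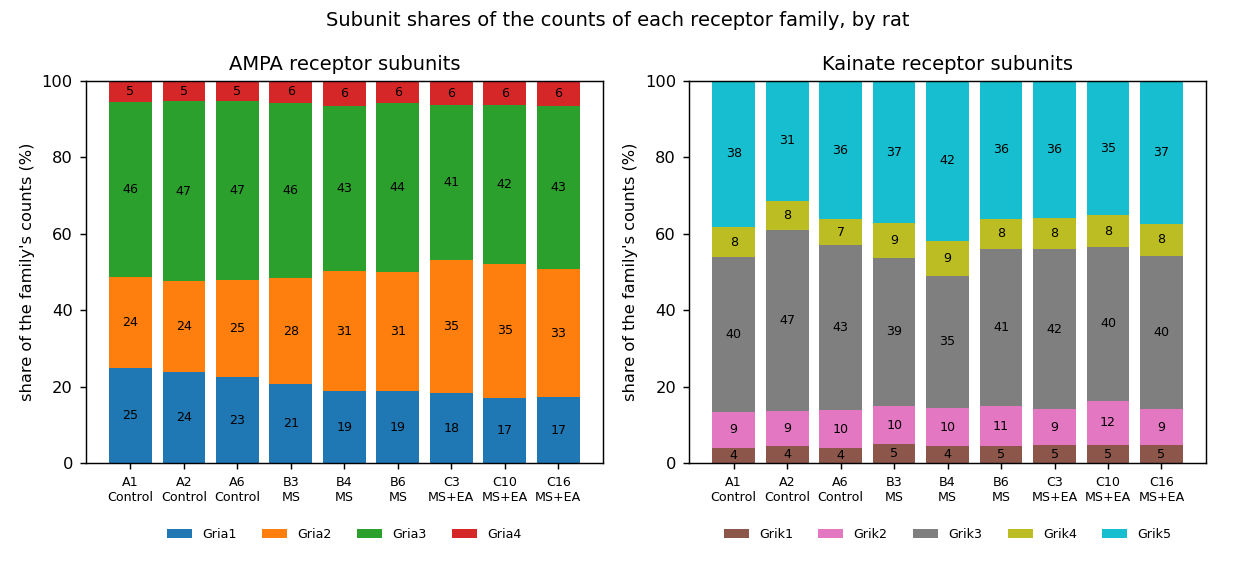
Share of each subunit gene in the counts of its receptor family (y axis, 0 to 100%) in each rat (x axis), for the AMPA genes (left) and the kainate genes (right). The Gria2 share is 23.9 to 25.2% in the Control rats, 27.6 to 31.3% in the MS rats and 33.4 to 35.1% in the MS+EA rats.

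The Gria1 share went the other way, from 23.7% ± 1.09 in Control through 19.6% ± 1.05 in MS to 17.6% ± 0.658 in MS+EA (n = 3 each), again without overlap between any groups. The Gria3 share was 46.6% ± 0.639, 44.5% ± 1.33 and 41.7% ± 1.13, and MS+EA rats lay below all others. The Gria4 share was 5.37% ± 0.0963, 5.95% ± 0.410 and 6.34% ± 0.0683, with all separated rats above Control. As the shares of a family sum to 100%, a higher share of Gria2 lowers the other shares. The summed CPM of the AMPA genes other than Gria2 overlapped between all groups, with means of 1037 in Control, 1047 in MS and 1001 in MS+EA. That overlap rests on C10 (1152 CPM), since C3 (917) and C16 (934) lay below every Control and MS rat. With Gria2 included the means were 1370, 1496 and 1528, and all separated rats lay above Control. The MS+EA mean of this sum rests on C10 (1777 CPM) as well, and C3 (1406) and C16 (1401) lay below every MS rat.

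Log2 ratios of subunit counts within each rat were added after the values had been seen, as a description. The ratio with the largest differences between groups, Gria2 over Gria1, is given in full. Of the others, Gria4 over Gria1 and Gria2 over Gria3 did not overlap between any groups. Gria2 over Gria4 overlapped between MS+EA and MS, and Grik3 over Grik5 overlapped in every comparison. The counts of Gria2 over those of Gria1, the pair of subunits that make up a common AMPA receptor of cortical excitatory neurons, had a log2 value of -0.06, 0.01 and 0.15 in Control. It was 0.41, 0.72 and 0.71 in MS, and 0.92, 1.04 and 0.94 in MS+EA. No 2 groups overlapped. C10, the highest MS+EA rat in both genes, was 1.04 beside 0.92 in C3 and 0.94 in C16.

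**Figure D4:**
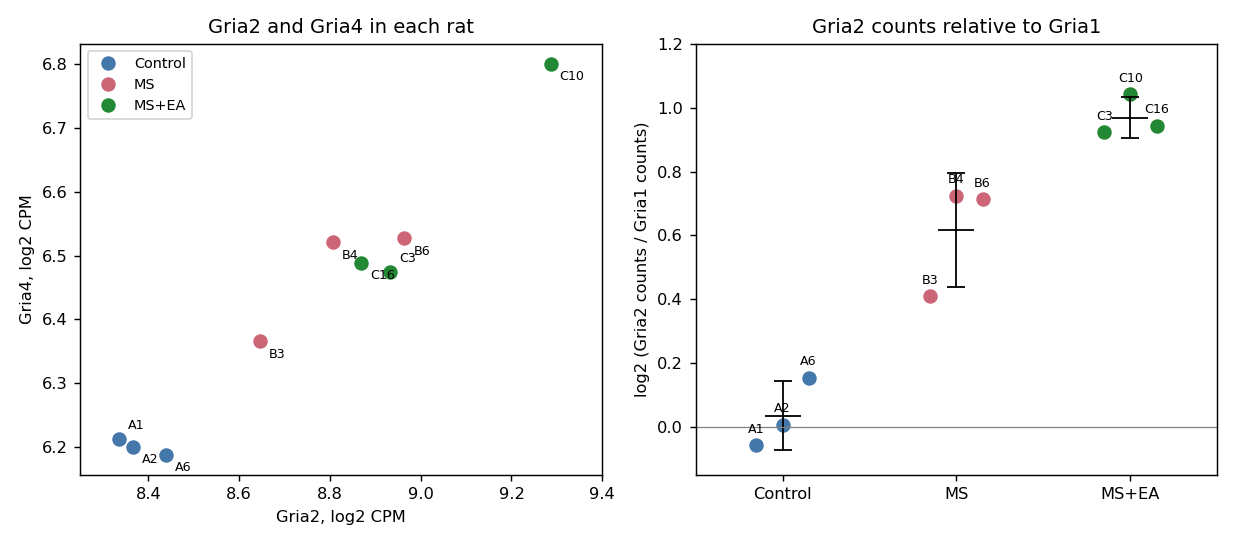
Left, log2 CPM of Gria4 (y axis) against that of Gria2 (x axis) in the 9 rats, colored by group, with C10 highest in both genes. Right, log2 ratio of Gria2 to Gria1 counts (y axis) by group (x axis), where points are rats and lines the mean ± SD (n = 3); the ratio is -0.06 to 0.15 in Control, 0.41 to 0.72 in MS and 0.92 to 1.04 in MS+EA.

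Among the kainate genes, 3 shares did not overlap in 1 comparison each. The Grik2 share was higher in MS (10.2% ± 0.256) than in Control (9.51% ± 0.313). The Grik1 share (4.72% ± 0.0349 against 4.18% ± 0.244) and the Grik4 share (8.10% to 8.38% against 6.88% to 8.01%) were higher in MS+EA than in Control. All 3 differences had an exact two-sided permutation p of 0.1 (adjusted p = 0.22, n = 3 per group). The Grik3 share was 43.6% ± 3.48 in Control, 38.1% ± 3.32 in MS and 40.7% ± 0.954 in MS+EA, and the Grik5 share 35.2% ± 3.52, 38.4% ± 3.05 and 36.1% ± 1.10, with overlap between all groups for both. The share of the high-affinity subunit genes Grik4 and Grik5 together was 42.7% ± 3.61, 47.0% ± 3.55 and 44.4% ± 1.18. The 5 kainate genes held 28.2% ± 0.560 of the counts of all 9 genes in Control, and 22.9% ± 0.891 in MS and 23.9% ± 2.36 in MS+EA. Both separated groups lay below Control in that share (exact permutation p = 0.1, adjusted p = 0.22), and the summed kainate CPM was 537 in Control, 445 in MS and 475 in MS+EA. Of the 11 shares examined, 5 did not overlap in MS against Control, 3 in MS+EA against MS and 7 in MS+EA against Control.

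The subunit genes were then compared with each other over the 9 rats. Gria2 and Gria4 had the closest pattern of the 36 pairs, with a Pearson r of 0.98 and a Spearman rho of 0.87 on log2 CPM. The r was 0.96 without C10 and A1, the 2 rats farthest from the median of Gria2, and 0.92 after the group means had been removed. These values are descriptions of 9 libraries that share their group differences and their scaling. Of the 36 pairs, 3 had an r above 0.7, and the median r was 0.20. The genes of the whole table whose log2 CPM most resembled a subunit gene over the 9 rats were named as a description as well. For Gria2 they were Dis3, the gene of an exosome ribonuclease, and LOC102546572 (r = 0.995 and 0.993), and for Gria4 Appl1, an endosomal adaptor, and Atrx, a chromatin remodeler (r = 0.99 for both). For Gria1 they were the protocadherin gene Pcdh10 and Prickle2 (r = 0.94 for both), for Gria3 LOC103693972 and Nf1 (r = 0.96 and 0.95), and for Grik3 the sterol transporter gene Abcg1 and LOC103693799 (r = 0.97 and 0.95). They were Rgs22 and Dcp1b for Grik1 (r = 0.97 and 0.96), Gapvd1 and Ints10 for Grik2 (r = 0.94 and 0.93), LOC102546589 and Prtg for Grik4 (r = 0.97 and 0.96), and Ehmt2 and Dhx33 for Grik5 (r = 0.97 and 0.94).

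Finally, 40 listed genes of proteins that accompany these receptors were examined, all of which were tested. By edgeR, DESeq2 and limma, 0 were called in each of the 3 comparisons. At an unadjusted p under 0.05 by edgeR there were 1 higher and 1 lower in MS against Control, 3 and 3 in MS+EA against MS, and 2 and 10 in MS+EA against Control. These were 2, 6 and 12 of the 40, where 10.6%, 12.4% and 22.5% of all genes had such a p. Without the fold criterion 1 of the 40 genes passed, in MS+EA against Control, where 5.40% of all genes did. It was Sacm1l, a lipid phosphatase of the ER that takes part in AMPA receptor biogenesis. Its CPM was 55.7 ± 2.93 in Control, 68.9 ± 1.99 in MS and 75.7 ± 5.35 in MS+EA (n = 3), and it rose by 0.44 on the log2 scale (adjusted p = 0.0106, edgeR).

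The 15 AMPA auxiliary subunit genes, which set the gating and surface delivery of the receptor, mostly had negative log2 fold changes in the separated rats. Against Control, 12 of the 15 had negative values in MS+EA, 6 of them at an unadjusted p under 0.05 (all genes, 22.5% in either direction) and 0 at an adjusted p under 0.05, and the median log2 fold change was -0.17, beside 0.01 over all genes tested. Cnih2, a cornichon that slows AMPA receptor closing, had 163 ± 28.3 CPM in Control, 148 ± 12.4 in MS and 119.7 ± 16.6 in MS+EA, a log2 fold change of -0.45 ± 0.12 from Control (adjusted p = 0.0538, edgeR). Cacng7, a transmembrane AMPA receptor regulatory protein, had -0.30 ± 0.09 (adjusted p = 0.0816, edgeR). The summed excitatory neuron markers did not overlap between MS+EA and Control either, and their part in these values was not tested. The same number, 12 of the 15, had negative values in MS against Control, with a median of -0.10 and none at an unadjusted p under 0.05, and the genes with the smallest p were Shisa7 (-0.14) and Cnih3 (-0.18). Between MS+EA and MS 12 of the 15 were again negative, with a median of -0.13, led by Cnih2 (-0.31, adjusted p = 0.336) and Cacng7 (-0.20, adjusted p = 0.405), all from edgeR. The 3 comparisons share rats with each other.

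**Figure D5:**
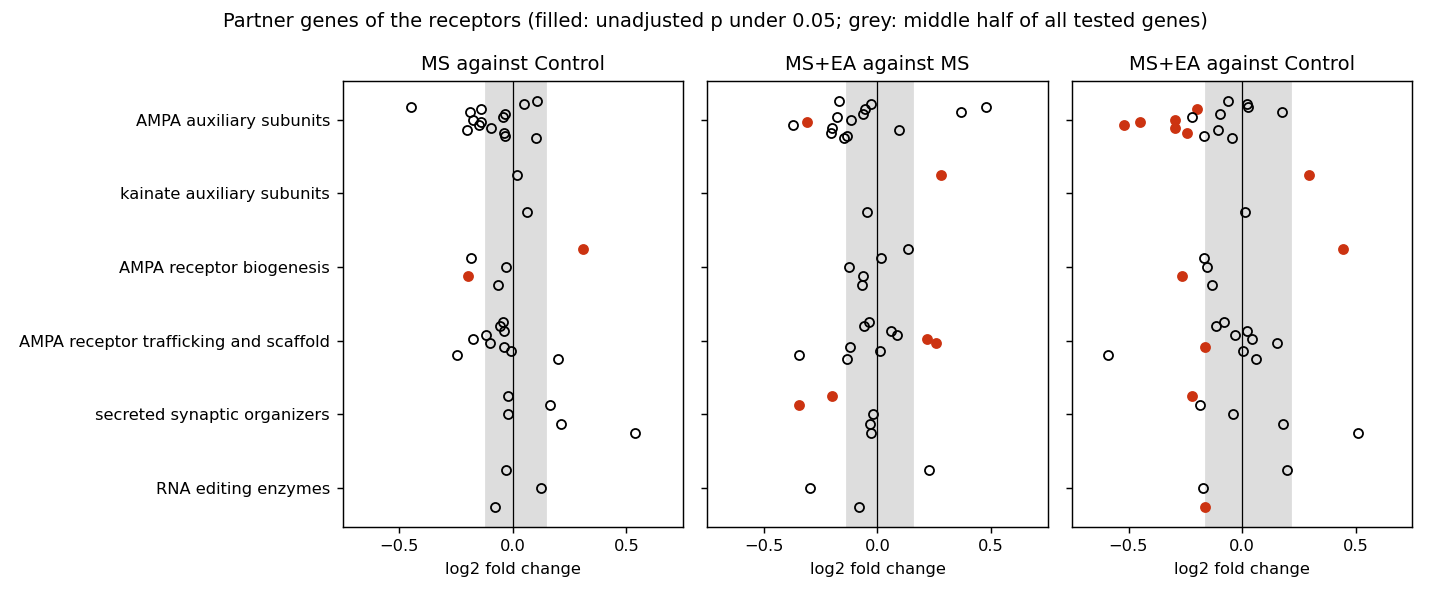
Log2 fold change (x axis) of the 40 listed partner genes by list (y axis) in the 3 comparisons, where each point is a gene, filled points have an unadjusted p under 0.05 and the grey band spans the quartiles of all genes tested. For MS+EA against Control, 12 of the 15 AMPA auxiliary subunit genes lie below 0, with a median of -0.17.

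Of the 2 kainate auxiliary genes, Neto2 had 18.6 ± 2.82 CPM in Control, 18.8 ± 1.62 in MS and 22.8 ± 1.57 in MS+EA, with all MS+EA rats above the others, and an adjusted p of 0.189 against Control and 0.393 against MS (edgeR). Neto1 had log2 fold changes between -0.05 and 0.06. Sacm1l had 0.31 in MS against Control (adjusted p = 0.159) and 0.14 in MS+EA against MS (adjusted p = 0.477, edgeR), where Frrs1l followed it by p (-0.12). Among the other biogenesis genes, Cpt1c, a partner of AMPA receptors in the ER, had the smallest p in MS against Control (-0.20, adjusted p = 0.387) and in MS+EA against Control (-0.26, adjusted p = 0.0713, edgeR). The 10 trafficking and scaffold genes had a median of -0.05 in MS against Control, -0.01 in MS+EA against MS and -0.01 in MS+EA against Control. Those with the smallest p were Akap5 (0.20) and Grip1 (-0.18) in MS against Control, Grip1 (0.22) and Grasp (0.26) in MS+EA against MS, and Epb41l1 (-0.16) and Arc (-0.59) in MS+EA against Control. None of these passed an adjusted p of 0.05 by edgeR.

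The 5 secreted synaptic organizers included the neuronal pentraxins, which gather AMPA receptors at synapses. All 5 had negative values in MS+EA against MS, with Nptx2 at -0.35 (adjusted p = 0.275, edgeR) and the pentraxin receptor gene Nptxr at -0.20 (adjusted p = 0.394, edgeR). The median of the 5 was only -0.03 and their highest value -0.02, beside a median of 0.0006 over all genes tested. In MS against Control the smallest p were those of Nptx2 (0.16) and C1ql3 (0.21), and in MS+EA against Control those of Nptxr (-0.22) and Nptx2 (-0.18). Of the genes listed as RNA editing enzymes, Adarb1 bears on Gria2 because it encodes ADAR2, which edits the Gria2 transcript. Adarb1 had a log2 fold change of 0.12 in MS against Control, -0.30 in MS+EA against MS and -0.17 in MS+EA against Control (adjusted p = 0.857, 0.537 and 0.620, edgeR). Adar had -0.16 in MS+EA against Control (adjusted p = 0.134) and -0.08 in both other comparisons. Adarb2 was also among the interneuron markers. The log2 fold change of Adarb2 was -0.03 in MS against Control, 0.23 in MS+EA against MS (adjusted p = 0.406, edgeR) and 0.20 in MS+EA against Control. Editing itself was not measured by these counts.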

How the data were processed

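Gene counts of 9 rats, 3 per group by the labels, were analysed. The authors depleted rRNA, sequenced on a HiSeq X instrument, mapped the reads to Rnor_6.0 with HISAT2 2.0.4 (the version per the submitters' processing notes) and deposited whole-number counts per gene without normalization. The counting program, its strand setting and its handling of reads with several locations are not given in the sources used here, so antisense reads cannot be told apart. Counts were taken as deposited, from 12479905 to 19007907 per rat. Within groups, the 9 pairs of libraries varied 5.96 to 13.0 times as much as counting error alone gives, and no library was a copy of another.

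edgeR 4.0.16 in R 4.3.3 was run on all 9 rats with TMM, filterByExpr (minimum count 10), one mean per group and the quasi-likelihood F test with Benjamini-Hochberg adjustment, instead of the authors' EBSeq. A call needed an adjusted p under 0.05 and a fold above 1.5. The SE was obtained from the log2 fold change and its F statistic. The common biological coefficient of variation was 12.7%. Shares were tested by an exact two-sided permutation test. The procedure was tested on simulated counts. Alternatives were DESeq2 1.42.0, limma 3.58.1 (trend on log2 CPM, prior count 2), RLE or total-count scaling, other filters, the 6 rats compared, no fold criterion and the omission of each rat. The omission of B4 and C10 together was chosen after seeing the data. Figures used matplotlib 3.10.9.

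The subunit genes, the partner lists and the marker lists were chosen with earlier results of these data known. All 9 subunit genes are named. In each partner list and comparison the called genes are named, otherwise the 2 with the smallest p. For likeness, the 2 genes with the highest Pearson r are named. A gene so named may also be given in the other comparisons. Proteins, transcript lengths and circRNAs were not used here. One further partner list, outside the 40 genes, is not reported here.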

Additional observations from a re-analysis of the deposited data

How the results depend on the processing

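Across 69 results, 819 values were computed under other settings, of which 766 were classed as unchanged. For a log2 fold change, unchanged meant the same direction and the same side of the threshold. For a share it meant the same direction alone. For a count of called genes it meant a count close to the main one, not always equal to it. No subunit gene was called in MS against Control or in MS+EA against MS under any of the 18 alternatives. In MS+EA against Control the count of 1 subunit gene became 2 without the fold criterion and 0 with both B4 and C10 left out, a choice made after seeing the data (Gria2 log2 fold change 0.52, adjusted p = 0.0113 by edgeR). It ranged from 0 to 1 when single rats were left out, and was 0 without A1 and without C10. Without the fold criterion the filter of at least 1 count and DESeq2 each gave Gria2 and Grik3 in MS against Control (2 genes), and Gria1, Gria2 and Gria4 in MS+EA against Control (3 genes).

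Counts over all genes moved more. In MS against Control the 4 calls became 207 with at least 1 count, 70 by DESeq2, 11 with the 6 rats compared and 7 without B4 and C10, with 2 to 22 when single rats were left out. Between MS+EA and MS the 3 calls became 72, 37, 1 and 12 in the same order, 0 by edgeR with at least 10 counts in every rat (1951 genes at an unadjusted p under 0.05; DESeq2 gave 37 and limma 3 at the usual filter), and 1 to 4 without single rats. In MS+EA against Control the 230 calls became 910 without the fold criterion and 469 with at least 1 count, with 71 to 304 without single rats, where A1 gave the lowest. The partner genes in that comparison went from 0 to 1 without the fold criterion, 1 with at least 1 count and 0 to 1 without single rats. The cause of these moves was not tested.

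The log2 fold changes that turned direction were near 0. In MS+EA against Control, Gria3 and Grik1 became 0.022 and 0.023 with total counts and 0.0087 and 0.0089 with at least 10 counts in every rat, and ranged from -0.12 to 0.074 and from -0.049 to 0.065 without single rats. Between MS+EA and MS, Grik2 became -0.095 and Grik4 -0.0090 without B4 and C10, and without single rats Grik2 ranged from -0.028 to 0.16 and Gria3 from -0.19 to 0.014. Some share differences also turned without single rats. In MS+EA against MS, Grik1 ranged from -0.00057 to 0.25 percentage points (0.093 with all rats) and Grik2 from -0.78 to 0.30 (-0.061). In MS+EA against Control, Grik2 ranged from -0.054 to 1.03 (0.66 with all rats) and Grik5 from -0.97 to 2.45 (0.98). Grik4 plus Grik5 ranged from -0.16 to 3.43 (1.71) in that comparison, so not all share differences that turned were near 0. The Gria2 share difference stayed positive, at 5.02 to 6.87, 3.23 to 5.08 and 9.74 to 10.6 points without single rats.

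Scaling moved the median of all genes by under 0.05 on the log2 scale. No paired analysis was possible because the labels give each group other animals, and no 2 groups share more than 1 replicate number (6 in Control and MS, 3 in MS and MS+EA). Shares per transcript length were not run, since no lengths were at hand. With 3 rats per group, the exact test of a share cannot pass 0.05.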
